A study of Sus scrofa with 12 samples.

Results

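The genes described here are the cytosolic ribosomal protein genes of porcine muscle satellite cells. They were taken by symbol: every row of the expression table named RPL or RPS with a number, together with RPSA, RPLP0, RPLP1 and RPLP2, and without the RPS6K kinases. The rule found 51 of the 31908 rows, 27 of the large and 24 of the small ribosomal subunit, on 15 chromosomes with at most 8 on any 1 of them. RPLP1 carried no symbol in the table and is described further on, with other ribosomal protein genes that were named only through the reference. Ribosomal proteins whose genes had no match by symbol, many of them of the large subunit, were left out. The members therefore do not cover the whole ribosome. Of the 51 members, 47 (23 large and 24 small) reached 1 FPKM in at least 3 libraries and were tested.

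RNA-seq of muscle satellite cells, the stem cells of skeletal muscle, was done in 12 libraries, 3 in each of 4 groups. The groups were inhibitor-treated cells at 60h of differentiation (CBP_60h), control cells at 60h (WT_60h), inhibitor-treated cells in proliferation (CBP_0h) and control cells in proliferation (WT_0h). The labels name the compound SGC-CBP30. It blocks the bromodomain of the histone acetyltransferases p300 and CBP and was given during proliferation and during differentiation at a dose written in a mixed unit. That treatment text stands on every sample, controls included, the names of the groups are given as a genotype, and what the control cells received is not stated, so that reading the CBP groups as inhibitor-treated is an interpretation of the labels. All groups were kept in the same serum-containing medium, and all carry the cell line name C3H, a name more common for mouse cells, although organism and genome build are pig. The labels do not say whether the 3 libraries of a group came from separate cultures or animals, so the p-values measure the spread between libraries, which may be technical.

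The libraries held 16095335 to 19155240 reads, recovered from the steps of the FPKM values (fragments per kilobase of gene model per a fixed number of counted reads). All 8 muscle lineage markers were measured, and their FPKM values summed to 1374 to 1489 in CBP_60h, 1876 to 2036 in WT_60h, 687 to 729 in CBP_0h and 1845 to 1863 in WT_0h libraries. Smooth muscle or pericyte markers (5 of 5 measured, mostly ACTA2, which myoblasts also express) summed to 1552 to 1643, 2629 to 2657, 803 to 856 and 2582 to 2683 in the same order, and fibroblast markers (5 of 5) to 122 to 148, 138 to 151, 18.9 to 20.8 and 50.3 to 52.2. Endothelial, immune and Schwann cell markers summed to at most 7.39 FPKM in any library. Of the 5 endothelial markers 1, and of the 5 immune markers 2, reached 1 FPKM in at least 3 libraries. The immune markers CD3E and PTPRC were at or near 0. The part that differences in cell makeup had in the results below was not tested. In bulk RNA, fewer cells of a type and less RNA per cell cannot be told apart. The library CBP_0h replicate 3 stood apart: it was the shallowest, and its members lay at a median of -0.07 from their group mean on the log2 scale, so results that rest on CBP_0h are also given without it where they change.

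Each ribosome carries a single copy of nearly every ribosomal protein, and cells therefore make these proteins in closely matched amounts. In vertebrates their mRNAs begin with a terminal oligopyrimidine (TOP) tract, through which the kinase complex mTORC1 and the RNA-binding protein LARP1 adjust their translation together. Ribosome production is high in dividing myoblasts, and a few members have paralogs with narrower or regulated expression, among them RPL3L in striated muscle. Ribosomal protein genes also have many near-identical processed copies in mammalian genomes. Reads shared with such copies may have been divided or lost in counting, so the levels of single members are uncertain.

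The members took up a smaller share of the transcriptome at 60h than at 0h in both arms. Their FPKM values summed to 5.61%, 5.74% and 5.61% of the library total in the 3 CBP_60h libraries, and to 5.04%, 5.19% and 5.31% in the WT_60h libraries. In CBP_0h the shares were 8.09%, 8.29% and 7.67%, and in WT_0h they were 7.42%, 7.51% and 7.58%. Every library at 60h lay below every library at 0h, and at each time every inhibitor library lay above every control library. Counted as reads rather than per length, the members held 2.77% to 2.87% of all reads in CBP_60h, 2.58% to 2.69% in WT_60h, 4.21% to 4.55% in CBP_0h and 3.96% to 4.07% in WT_0h. A share depends on what the other genes do, which is why each comparison below is also given after median-of-ratios scaling, a scaling that sets the typical gene equal between libraries. Its factors were 1.01 to 1.04 in CBP_60h, 0.936 to 0.941 in WT_60h, 1.07 to 1.096 in CBP_0h and 0.975 to 0.996 in WT_0h, and values were divided by them, which lowered the inhibitor relative to the control libraries.

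**Figure D1:**
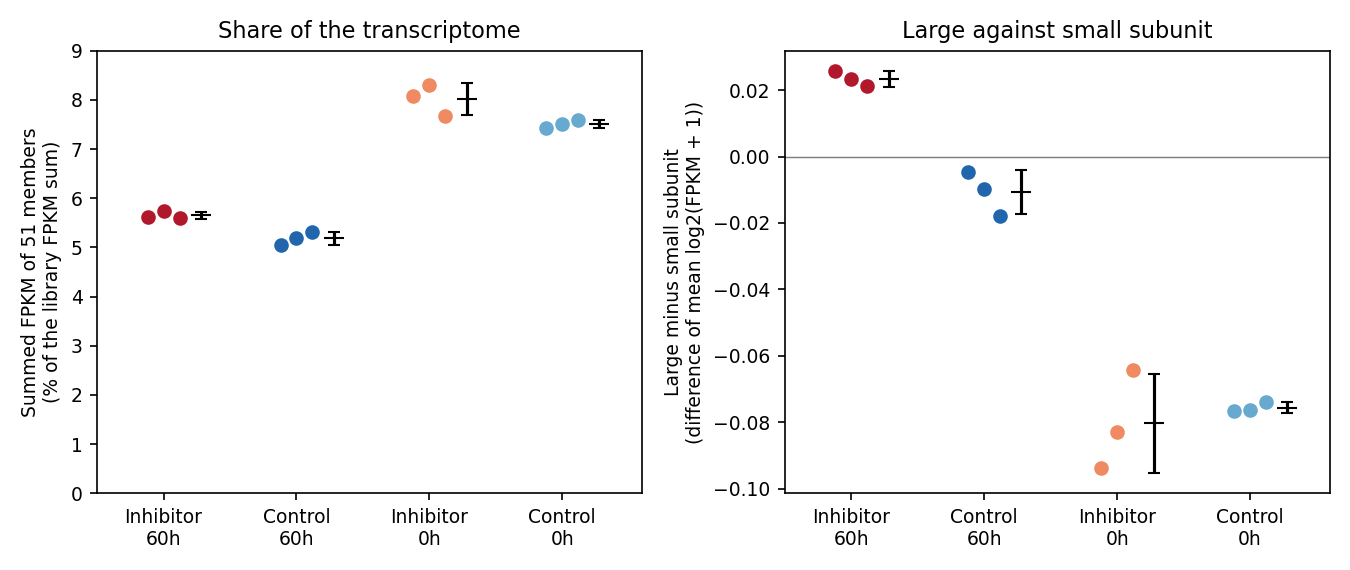
Left, summed FPKM of the 51 members as a percentage of the library's FPKM sum; right, mean log2(FPKM + 1) of the 23 tested large-subunit members minus that of the 24 small-subunit members. Points are libraries (n = 3 a group) and bars are mean ± SD. The shares lie at 5.04% to 5.74% at 60h and at 7.42% to 8.29% at 0h. The subunit difference lies at -0.02 to 0.03 at 60h and at -0.09 to -0.06 at 0h. Without the paralogs RPL26L1, RPL7L1 and RPS27L the control groups stand in the opposite order.

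Levels of the tested members spanned a wide range per length, with group means of 16.1 to 2898 FPKM and 374 to 63480 reads per library. RPLP0, the base of the stalk that recruits translation GTPases, was the highest. Gene models ran from 403 to 8343 bases with a median of 1405. In 10 of the 47 the model was longer than the span of the reference gene of that symbol, among them RPL4, RPL11, RPL28, RPS6 and RPS24. For these the FPKM may not measure the mature mRNA alone. Levels between members, and the changes of these 10 given below, should be read with that in view. The median coefficient of variation within a group was 2.36% in CBP_60h, 2.70% in WT_60h, 4.99% in CBP_0h and 1.67% in WT_0h.

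The other 4 members were too low to test. RPL29, a small basic protein of the large subunit, had 111 reads in all 12 libraries and group means of 0.336 in CBP_60h, 0.588 in WT_60h, 0.623 in CBP_0h and 0.368 FPKM in WT_0h. RPL10A, whose gene model of 3716 bases was also longer than the span of the reference gene, had 200 reads in all. RPL3L, the striated muscle paralog of RPL3, had 83. RPL10L, a paralog expressed in testis in mouse and human, had 0 reads in every library, which allows up to 3 reads in each. These limits cover counting error only. They do not cover reads lost to near-identical copies, and whether RPL29 and RPL10A are as low in the cells was not tested.

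In control cells, ribosomal protein genes were lower at 60h than at 0h almost without exception. Of the 47 tested members, 45 fell and 2 rose (limma, adjusted p under 0.05 over 11636 genes), against 38% of all tested genes that fell and 28.8% that rose. The median member changed by -0.59 on the log2(FPKM + 1) scale, and the median of all genes by -0.05. The middle 50% of the members lay between -0.65 and -0.54, a narrower band than the -0.29 to 0.20 of all genes. In 45 members all 3 WT_60h libraries lay below all 3 WT_0h libraries, as in 40% of all genes, and in 2 above them (30.7%). After median-of-ratios scaling the same 45 fell and the same 2 rose, with a median of -0.53 against 0.01 for all genes and a background of 32.2% lower and 33.9% higher.

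RPS6 fell the most in control cells. This small-subunit protein is the classical substrate of the S6 kinases downstream of mTORC1, and its gene lies on chromosome 1 at 203444360 to 203447643 in Sscrofa11.1. It had 191, 189 and 195 FPKM in the WT_60h libraries, against 353, 362 and 367 FPKM in the WT_0h libraries. The groups did not overlap, and the mean was 1.88-fold lower at 60h (log2 change -0.91 ± 0.03 SE, adjusted p = 6.43e-11). RPL27A, a core protein of the large subunit, averaged 396 ± 17.3 FPKM in WT_60h and 701 ± 8.02 FPKM in WT_0h (SD, n = 3), a log2 change of -0.82. RPL5 and RPL11 bind the 5S rRNA together and, when free, the p53 regulator MDM2. RPL5 averaged 305 ± 4.71 FPKM in WT_60h and 526 ± 5.38 FPKM in WT_0h, and RPL11 averaged 101 ± 0.685 FPKM in WT_60h and 158 ± 2.12 FPKM in WT_0h. Their log2 changes were -0.78 and -0.64.

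Other members of known role moved by similar amounts. RPL3, a protein close to the peptidyl transferase centre, changed by -0.75, the X-linked RPS4X by -0.65, RPLP0 by -0.62 and RPL22, whose loss in mice affects T lymphocyte development, by -0.50. The smallest falls were those of RPSA, also known as a laminin receptor, at -0.40 ± 0.03 SE (adjusted p = 2.05e-07), and of the paralog RPS27L at -0.43 ± 0.05 SE (adjusted p = 2.08e-05).

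In inhibitor-treated cells the pattern across time was nearly the same, with 46 members lower and 1 higher at 60h, beside 41.5% of all genes lower and 31.3% higher. The median member changed by -0.63 and the median of all genes by -0.06. The middle 50% of members lay between -0.74 and -0.52, a wider band than in control cells. All 3 CBP_60h libraries lay below all 3 CBP_0h libraries in 46 members, as in 42.7% of all genes, and above them in 1 (32.6%). Median-of-ratios scaling left 46 lower and 1 higher, with a median of -0.56 against 0.00 for all genes and 35.9% of all genes called in each direction. In both arms these calls were the same under the deposited values, median-of-ratios, TPM and quantile scaling.

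RPL4, which lines the exit tunnel of the nascent chain, fell the most in inhibitor-treated cells. It had 171, 171 and 162 FPKM in CBP_60h, against 331, 343 and 319 FPKM in CBP_0h, which is 1.97-fold lower (log2 change -0.97 ± 0.03 SE, adjusted p = 5.28e-11). The control cells had 224, 219 and 226 FPKM in WT_60h, against 311, 317 and 317 FPKM in WT_0h, a log2 change of -0.50. Its gene lies on chromosome 1 at 164476269 to 164481765. RPS6 averaged 213 ± 6.47 FPKM in CBP_60h and 400.2 ± 5.58 FPKM in CBP_0h, a log2 change of -0.91. RPL5 and RPL3 each changed by -0.89. The smallest falls were in RPL7L1 at -0.23, RPS15 at -0.35 and RPLP0 at -0.38.

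**Figure D2:**
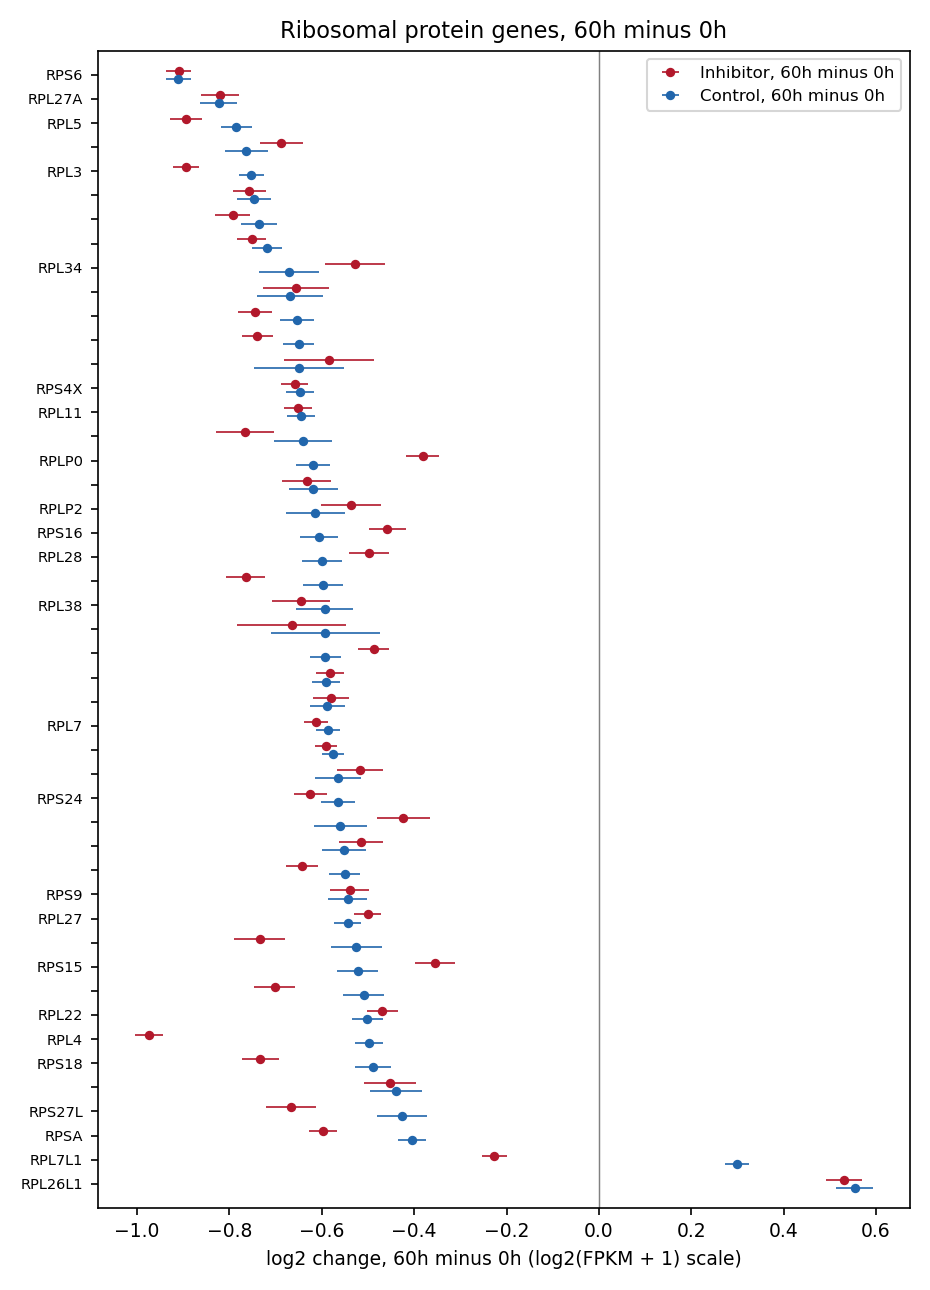
log2 change at 60h minus 0h of the 47 tested members, on the log2(FPKM + 1) scale, in inhibitor-treated (red) and control cells (blue); bars are the standard error of the limma fit (3 libraries a group). Members are sorted by the control change, and those described in the text beside it are labelled: 45 lie left of 0 in control and 46 in inhibitor-treated cells, RPL26L1 lies right of 0 in both, and RPL7L1 lies on opposite sides.

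The exceptions to the fall were paralogs. RPL26L1 is a close copy of RPL26, and its gene lies on chromosome 16 at 51267492 to 51276692. It had 62.9, 60.7 and 61.5 FPKM in CBP_60h, 57.1, 58.5 and 56.0 in WT_60h, 42.0, 43.8 and 41.4 in CBP_0h, and 38.5, 41.1 and 36.5 in WT_0h. Every library at 60h lay above every library at 0h. The log2 change was 0.53 ± 0.04 SE in inhibitor-treated cells (adjusted p = 1.22e-07) and 0.55 ± 0.04 SE in control cells (adjusted p = 1.21e-07).

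RPL7L1 encodes a nucleolar paralog of RPL7 found in precursors of the large subunit, and its gene lies on chromosome 7 at 37940549 to 37948258. Its values were 38.3, 37.8 and 36.4 FPKM in CBP_60h, 44.9, 45.5 and 46.1 in WT_60h, 43.7, 44.9 and 43.4 in CBP_0h, and 37.2, 36.9 and 36.4 in WT_0h. It was therefore highest in control cells at 60h and in inhibitor-treated cells at 0h. Across time it fell in inhibitor-treated cells (-0.23 ± 0.03 SE, adjusted p = 7.71e-06) and rose in control cells (0.30 ± 0.03 SE, adjusted p = 8.55e-07).

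RPS27L, a paralog of RPS27 that p53 induces in human cells, fell across time in both arms. It had 16.5, 15.4 and 16.6 FPKM in CBP_60h, 17.8, 18.4 and 19.4 in WT_60h, 27.8, 26.9 and 24.1 in CBP_0h, and 25.1, 26.4 and 24.4 in WT_0h. Without RPL26L1, RPL7L1 and RPS27L, all 44 remaining tested members were lower at 60h in each arm. The parent genes RPL26 and RPS27, and the paralogs RPL22L1 and RPL39L, had no match by symbol and were not analysed here.

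**Figure D3:**
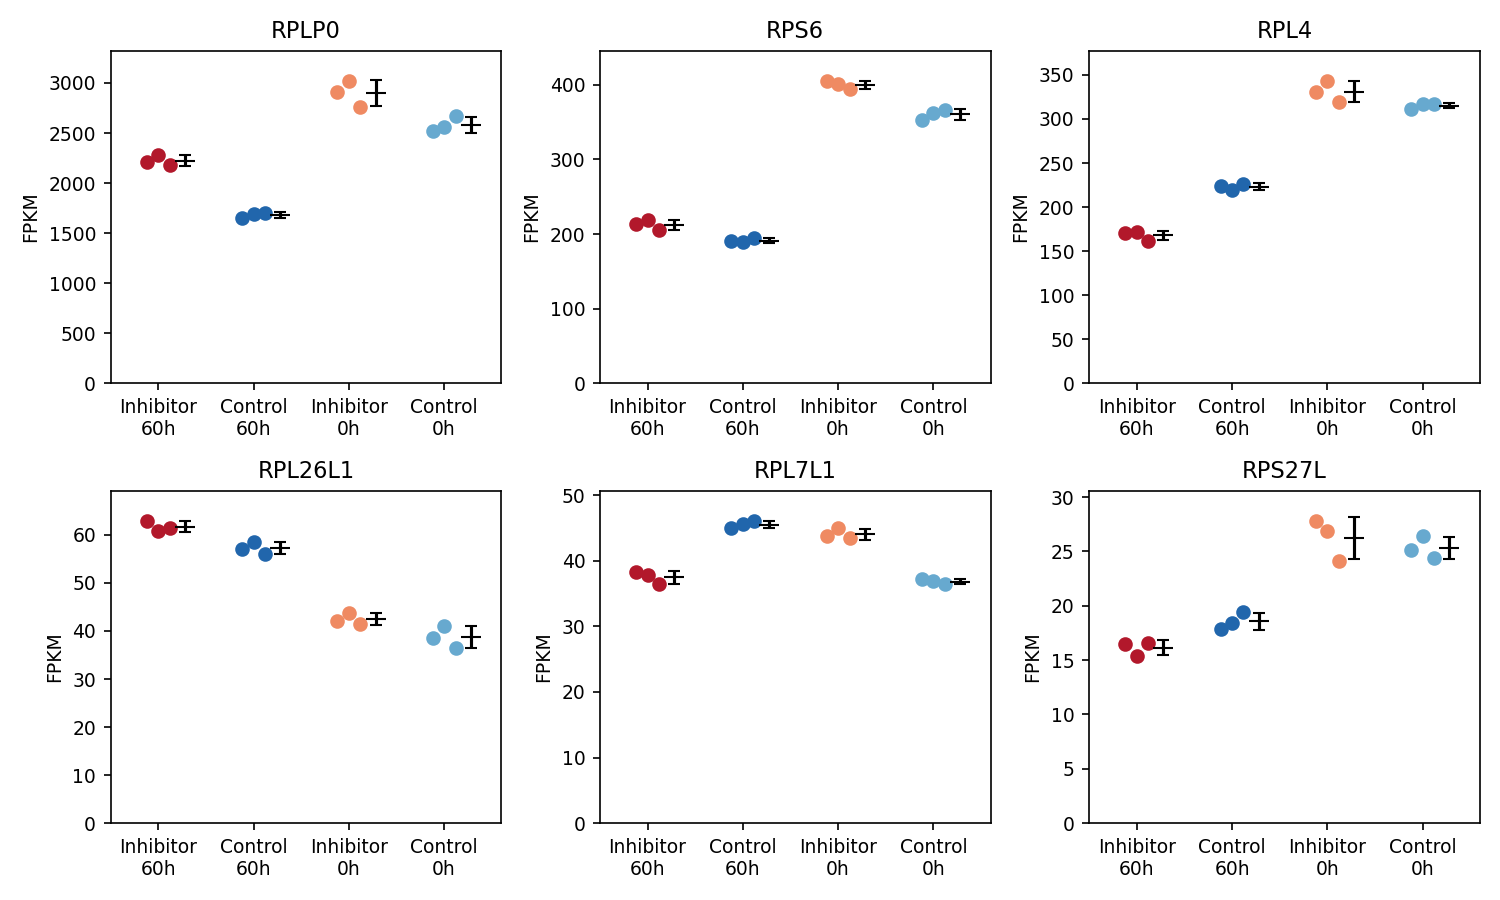
FPKM of 6 members in each library (points) with mean ± SD of the group (bars, n = 3), each axis from 0. RPLP0, RPS6, RPL4 and RPS27L are lower at 60h than at 0h in both arms, RPL26L1 is higher at 60h, and RPL7L1 is highest in WT_60h and lowest in WT_0h.

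In proliferation, members were slightly higher in inhibitor-treated than in control cells, by the amount of the typical gene when all libraries were kept. In the deposited values 28 of 47 were higher and 0 lower, beside 44.2% of all genes higher and 18.1% lower. The median member changed by 0.12, as did the median of all genes. In 29 members all CBP_0h libraries lay above all WT_0h libraries (47.2% of all genes), and in 0 members below (19.6%). Median-of-ratios scaling brought the median of all genes to 0.00. RPL22 and RPL7L1 were then the 2 members called higher, 0 were lower, and the median member stood at -0.01, beside 25.7% of all genes higher and 26.5% lower. Without CBP_0h replicate 3, 39 members were called higher in the deposited values, and the median member changed by 0.16. The share of all genes called higher and their median change in that fit were not computed, so these values have no background beside them.

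RPL22 had 84.7, 87.1 and 79.5 FPKM in CBP_0h, against 70.4, 68.0 and 71.2 FPKM in WT_0h. The groups did not overlap, and the log2 change was 0.26 ± 0.03 SE as deposited (adjusted p = 3.28e-05) and 0.12 ± 0.04 SE after median-of-ratios scaling (adjusted p = 0.0179). RPL7L1 changed by 0.25 ± 0.03 SE as deposited (adjusted p = 5.94e-06) and by 0.12 ± 0.03 SE after scaling (adjusted p = 0.00451). RPS9, a small-subunit protein, averaged 342 ± 20.7 FPKM in CBP_0h and 290.4 ± 5.07 FPKM in WT_0h, a log2 change of 0.23 as deposited (adjusted p = 0.000526). After scaling its change was 0.10 (adjusted p = 0.0989). Genes followed in many studies as single members showed small mRNA changes. As deposited RPS6 changed by 0.15, RPLP0 by 0.17, RPL5 by 0.12, RPSA by 0.12 and RPL11 by 0.06. Of these all but RPL11 passed the test, and none passed it after scaling.

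At 60h members differed from control cells in both directions. In the deposited values 20 were higher and 4 were lower under the inhibitor, beside 44.7% of all genes higher and 27% lower, and the median member changed by 0.09 against 0.10 for all genes. The middle 50% of members lay between 0.02 and 0.20. All CBP_60h libraries lay above all WT_60h libraries in 25 members (46.1% of all genes) and below them in 5 (28.2%). Median-of-ratios scaling brought the median of all genes to -0.01 and gave 6 higher and 13 lower, beside 33.1% and 35.9% of all genes. Under that scaling the median member stood at -0.05, on the other side of 0.

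The 10 members called in the same direction under all 4 whole-library scalings were RPLP0, RPL22, RPL27, RPL28, RPS15 and RPS16, which were higher, and RPL4, RPL7L1, RPS27L and RPSA, which were lower. RPLP0 had 2209, 2281 and 2178 FPKM in CBP_60h, against 1649, 1694 and 1699 FPKM in WT_60h. The groups were far apart, with a mean 1.32-fold higher under the inhibitor (log2 change 0.40 ± 0.04 SE, adjusted p = 8.14e-07; after median-of-ratios scaling 0.27, adjusted p = 0.000238). RPLP0 serves as a reference gene in many PCR assays, and its gene lies on chromosome 14 at 40219196 to 40223943. RPL22 had 60.1, 60.2 and 60.3 FPKM in CBP_60h, against 48.0, 49.8 and 49.4 FPKM in WT_60h, a log2 change of 0.29 (adjusted p = 7.11e-06). RPL34, of the large subunit, changed by 0.30 as deposited (adjusted p = 0.00128) and by 0.17 after scaling (adjusted p = 0.0538).

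RPL4 was 1.33-fold lower in CBP_60h than in WT_60h, with the values given above and no overlap between libraries (log2 change -0.41 ± 0.03 SE, adjusted p = 1.78e-07; after scaling -0.54, adjusted p = 8.86e-08). RPL7L1 changed by -0.27 ± 0.03 SE (adjusted p = 1.6e-06) and RPS27L by -0.19 ± 0.05 SE (adjusted p = 0.00748). RPSA had 315.9, 335.5 and 313.6 FPKM in CBP_60h, against 335.1, 338.9 and 342.3 FPKM in WT_60h, and these ranges overlapped (log2 change -0.08, adjusted p = 0.0436; after scaling -0.21, adjusted p = 0.000423). The deposited call of RPSA was lost without CBP_60h replicate 1 or 3 or without any 1 WT_60h or WT_0h library, with adjusted p of 0.0555 to 0.154. RPL3, RPL5 and RPL11 changed by 0.02, 0.01 and 0.05 and did not pass the test as deposited. After scaling RPL3 was at -0.11 (adjusted p = 0.0155) and RPL5 at -0.12 (adjusted p = 0.0235), both called lower. RPS6 and RPS4X changed by 0.15 and 0.20 as deposited and passed, and by 0.02 and 0.07 after scaling, where they did not.

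**Figure D4:**
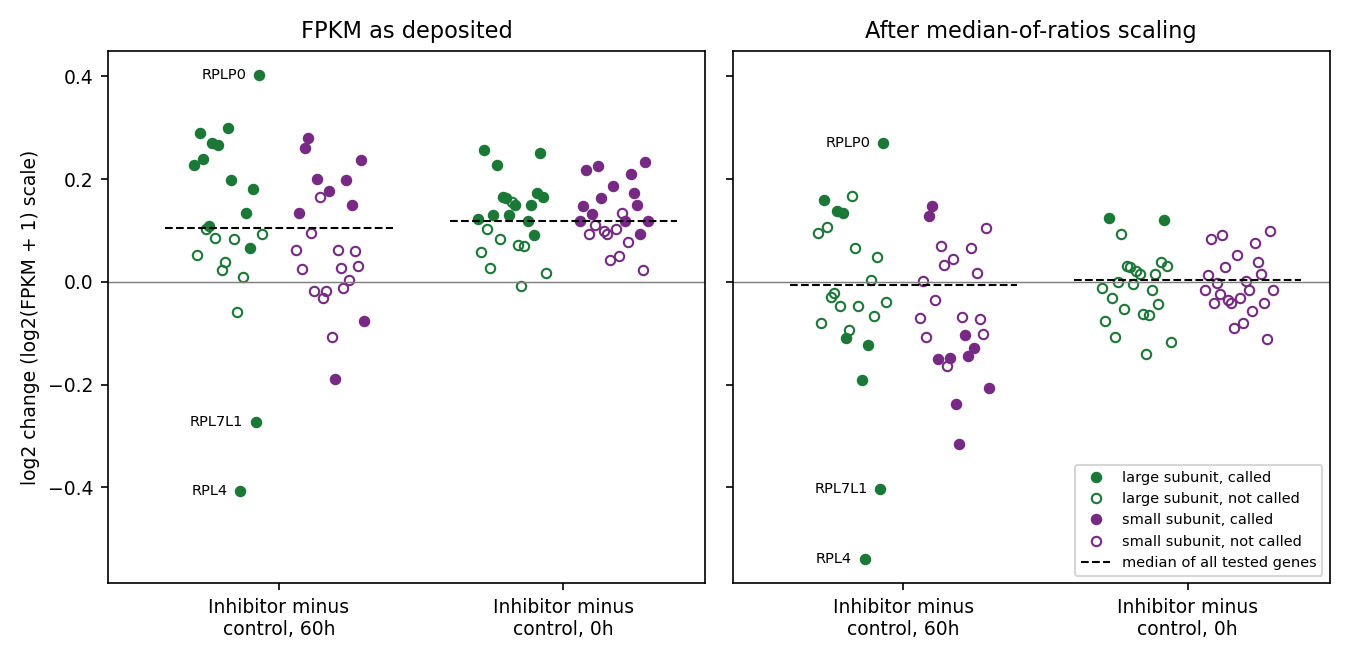
log2 change of the 47 tested members at 60h and at 0h, inhibitor minus control, on the log2(FPKM + 1) scale, for deposited FPKM (left) and after median-of-ratios scaling (right); green is the large and purple the small subunit, filled points passed an adjusted p of 0.05, and the dashed line is the median of all 11636 tested genes. Members gather around the dashed line at 0h and spread from RPL4 at -0.41 to RPLP0 at 0.40 at 60h in the deposited values.

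The inhibitor effect at 60h was set against that at 0h in an interaction term. In the deposited values 3 members had a higher and 9 a lower effect at 60h, beside 24.3% of all genes higher and 26.7% lower. The largest terms were those of RPL7L1 at -0.53 ± 0.04 SE (adjusted p = 3.48e-07) and RPL4 at -0.48 ± 0.04 SE (adjusted p = 2.66e-06). RPLP0 stood at 0.24 ± 0.05 SE (adjusted p = 0.00216) and RPS18, a protein of the small-subunit head, at -0.24 ± 0.06 SE (adjusted p = 0.00308). After median-of-ratios scaling RPLP0 alone was higher and 7 were lower, beside 24.3% and 26.1% of all genes, and the calls that stood under all 4 scalings were RPLP0 on the higher side and RPL3, RPL4, RPL7L1, RPS18, RPS27L and RPSA on the lower. RPS15 and RPS16, at 0.17 and 0.15, were called as deposited, under TPM scaling and relative to the family median, but not under quantile scaling or after median-of-ratios scaling (adjusted p = 0.0728 and 0.0953). Without CBP_60h replicate 2 or 3, WT_60h replicate 1 or 2, CBP_0h replicate 3, or WT_0h replicate 2 or 3, the higher count as deposited was 1 in place of 3. The term of RPS6 was 0.00 ± 0.04 SE (adjusted p = 0.992), with a nearly equal inhibitor effect at the 2 times.

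Dividing each library by the members' own median gives the change of each relative to the family, and the scaling makes no reference to the other genes. The calls do refer to them, because the spread model and the adjustment of p took in all tested genes. Across time in control cells 10 members stood above and 8 below the family, beside 76% and 7.11% of all genes. RPL26L1 (1.15) and RPL7L1 (0.90) were farthest above, then RPSA (0.21), and RPS6 (-0.30), RPL27A (-0.21) and RPL5 (-0.17) farthest below. In inhibitor-treated cells 17 stood above and 13 below, beside 74.5% and 9.77%, with RPL26L1 (1.16), RPL7L1 (0.40) and RPS15 (0.29) above and RPL4 (-0.33), RPS6 (-0.27) and RPL5 (-0.25) below. RPS6 and RPL5 were thus below the family in both arms. The arms share no libraries, but both were read from 1 fit with a shared spread per gene. These members were also picked as extremes of the same values. Under this scaling the median of all genes across time stood at 0.47 in control and 0.48 in inhibitor-treated cells. The shares of all genes across time therefore follow from the fall of the family itself and are no background for single members. The counts of 10 and 8 and of 17 and 13 members depend on that fall too. With so many genes called, the adjustment is less strict for each member. Between inhibitor-treated and control cells at 60h, 15 stood above and 12 below (35% and 31.3% of all genes), led by RPLP0 (0.31) and RPL4 (-0.50). At 0h, 6 stood above and 3 below (22.8% and 22.1%), with 2 above without WT_0h replicate 3, 5 below without CBP_60h replicate 2 or WT_60h replicate 3, and 1 below without WT_0h replicate 2. Among those below were RPL38, a protein whose loss in mice disturbs axial patterning, at -0.13 (adjusted p = 0.0457), and RPLP2, the partner of RPLP1 in the stalk, at -0.10 (adjusted p = 0.0498). In the interaction 7 stood above and 6 below (23.6% and 21.7%), with 4 above without WT_0h replicate 3.

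Members of both subunits fell across time. Many large-subunit proteins had no gene matched by symbol, so the comparison of the subunits holds for the members found only. Of the 23 large-subunit members tested, 22 fell and 1 rose across time in inhibitor-treated cells (median -0.58), and 21 fell and 2 rose in control cells (median -0.59). All 24 small-subunit members fell in both arms, with medians of -0.67 in inhibitor-treated and -0.59 in control cells. The mean log2(FPKM + 1) of the large subunit minus that of the small subunit was 0.03, 0.02 and 0.02 in CBP_60h, 0.00, -0.01 and -0.02 in WT_60h, -0.09, -0.08 and -0.06 in CBP_0h and -0.08, -0.08 and -0.07 in WT_0h. The 4 groups therefore did not overlap between times. In inhibitor-treated cells this order came in part, and in control cells wholly, from the paralogs. Without RPL26L1, RPL7L1 and RPS27L the difference was 0.08 to 0.09 in CBP_60h and 0.04 to 0.05 in WT_60h. It was then 0.04 to 0.06 in CBP_0h and 0.06 to 0.07 in WT_0h. The control groups then stood in the opposite order, with WT_60h below WT_0h, and CBP_60h alone stood apart above the rest. Between inhibitor-treated and control cells at 60h, 12 large-subunit members were higher and 2 lower (median 0.10), against 8 and 2 of the small subunit (median 0.06), beside 44.7% of all genes higher and 27% lower. At 0h, 14 of each were higher (medians 0.13 and 0.12), beside 44.2% of all genes. Median-of-ratios scaling gave 4 higher and 5 lower large-subunit and 2 higher and 8 lower small-subunit members at 60h, and 2 higher large-subunit members and 0 of the small subunit at 0h, beside 33.1% of all genes higher and 35.9% lower at 60h and 25.7% higher at 0h.

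Other genes of the ribosome that the rule left out were lower at 60h as well. The 7 ribosomal protein genes named only through the reference were RPLP1, RPL14, RPL23A, RPL36A, RPS2, RPS15A and RPS28. Their median change was -0.63 in each arm. As deposited 6 of the 7 fell in inhibitor-treated and 7 in control cells, beside 41.5% and 38% of all genes. After median-of-ratios scaling the counts were the same, beside 35.9% and 32.2%. RPS2 varied widely within a group, with 280, 169.7 and 168 FPKM in WT_60h, and was higher in CBP_60h at 311, 350.2 and 298 FPKM (log2 change 0.67, adjusted p = 0.0018). RACK1, the signalling scaffold of the small subunit, changed by -0.72 in inhibitor-treated and by -0.60 in control cells, and RPL36AL, a paralog of RPL36A, by -0.62 and -0.53.

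Genes known to carry TOP tracts outside the ribosome were lower at 60h too. Of 15 tested, 15 fell in inhibitor-treated (median -0.55) and 14 in control cells (median -0.50), and 0 rose; after median-of-ratios scaling 14 fell in each arm. Of all tested genes, 41.5% fell and 31.3% rose in inhibitor-treated and 38% fell and 28.8% rose in control cells, as deposited. The largest changes were those of EIF4B, an activator of the initiation helicase, at -1.06 and -0.94 and of EEF1B2, an exchange factor of elongation, at -0.99 and -0.95. Under the inhibitor 10 of the 15 were higher and 2 lower at 60h, and 10 were higher and 0 lower at 0h, as deposited, beside 44.7% and 27% of all genes at 60h and 44.2% and 18.1% at 0h. After scaling the counts were 5 and 3 at 60h, beside 33.1% and 35.9%, and 3 and 3 at 0h, beside 25.7% and 26.5%. Of 28 tested translation factors not known for such tracts, 2 rose and 20 fell in inhibitor-treated cells (median -0.21), and 11 rose and 8 fell in control cells (median 0.01, and 0.08 after scaling). Their interaction was higher in 1 and lower in 21 as deposited (median -0.23), beside 24.3% and 26.7% of all genes. After scaling it was higher in 1 and lower in 19, beside 24.3% and 26.1%. Of 21 regulators of mTORC1 and TOP mRNAs, 8 rose and 9 fell in inhibitor-treated cells and 6 rose and 9 fell in control cells. After scaling the counts were 9 and 8 in inhibitor-treated and 9 and 5 in control cells. Of all genes, 35.9% rose and 35.9% fell in inhibitor-treated cells under that scaling, and 33.9% rose and 32.2% fell in control cells. EIF4EBP1 and EIF4EBP2 encode repressors of the cap-binding protein eIF4E. At 60h they differed in opposite directions between the arms, with EIF4EBP1 at 29.4 ± 1.07 FPKM in CBP_60h and 62.0 ± 0.795 FPKM in WT_60h, and EIF4EBP2 at 43.0 ± 0.935 FPKM in CBP_60h and 24.0 ± 0.971 FPKM in WT_60h (log2 changes -1.05 and 0.82).

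The mitochondrial ribosomal proteins, encoded by other genes and serving a separate ribosome, fell in part. Of 67 tested, 2 rose and 52 fell across time in inhibitor-treated cells (median -0.37), and 3 rose and 31 fell in control cells (median -0.12). Of all genes, 31.3% rose and 41.5% fell in inhibitor-treated cells, and 28.8% rose and 38% fell in control cells. The test of the difference, the interaction, was lower in 36 and higher in 3 of the 67 mitochondrial genes. Among the 47 cytosolic members it was lower in 9 and higher in 3, and among all genes in 26.7% and 24.3%. The cytosolic 9 of 47 thus lay below the share of all genes. After scaling the mitochondrial counts across time were 3 higher and 47 lower in inhibitor-treated and 6 and 25 in control cells, with the same interaction counts. Under that scaling 35.9% of all genes were higher and 35.9% lower across time in inhibitor-treated cells, and 33.9% and 32.2% in control cells. Genes of RNA polymerases I and III and of ribosome assembly, 54 tested, were counted in the same way, with 1 higher and 35 lower across time in inhibitor-treated and 16 higher and 13 lower in control cells, and an interaction lower in 35 and higher in 2. After scaling the counts across time were 6 higher and 30 lower in inhibitor-treated and 28 and 8 in control cells. Of all genes, 28.8% were higher across time in control cells as deposited and 33.9% after scaling. Beside 26.1% and 24.3% of all genes, the interaction was then lower in 33 and higher in 2 of these 54. Among them GRWD1, an assembly chaperone of RPL3, had an interaction of -0.66 (adjusted p = 6.28e-07).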

How the data were processed

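Per the submitters' processing notes, the authors used Trimmomatic and featureCounts with the pig build Sscrofa11.1, without stated versions. Aligner, annotation release and strandedness were not given in the sources used here, so antisense or overlapping partners cannot be separated. The authors deposited 1 table of FPKM values with a column per library. Whole reads, library totals and model lengths were recovered from the steps of these values: all 22521 genes above 0 gave whole reads within 0.01. The table named 16801 genes, a further 687 were named by identifier through the reference, and positions came from the RefSeq annotation of the same build, matched by symbol.

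Genes with FPKM of at least 1 in 3 or more libraries (11636) were fitted as log2(FPKM + 1) with limma 3.58.1 in R 4.3.3, with 4 group means over all 12 libraries, trended empirical Bayes, two-sided tests and Benjamini-Hochberg adjustment over all tested genes. The script was tested on simulated data. Calls were made below an adjusted p of 0.05. The log2 scale understates changes of low genes. Comparisons that share a group of libraries are not independent. Alternatives changed scaling, pseudocount, filter, samples, spread model, threshold and libraries.

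Members named are the largest called changes, the largest departures from the family median and a fixed set of well-known proteins and paralogs; other members were named where a count was small. Results for some genes are not reported here. Members and lists were chosen with earlier results of these data known.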

Additional observations from a re-analysis of the deposited data

Results flagged for a closer look

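In the members below the inhibitor effect at 60h differed from that at 0h by the interaction term of the limma fit (adjusted p under 0.05 over 11636 genes, FPKM as deposited), beside 24.3% of all tested genes with a higher and 26.7% with a lower effect at 60h. The term was -0.53 for RPL7L1, -0.48 for RPL4, -0.24 for RPS18, -0.24 for RPS27L, -0.21 for RPS27A, -0.19 for RPSA, -0.19 for RPS13 and -0.14 for RPL3. It was 0.24 for RPLP0, 0.17 for RPS15 and 0.15 for RPS16. After median-of-ratios scaling RPS27A, RPS15 and RPS16 no longer passed the test. RPS27L missed it as deposited without CBP_60h replicate 2, WT_60h replicate 3 or CBP_0h replicate 1, with adjusted p of 0.0503 to 0.051. RPL7L1 was the only member with the inhibitor effect called in opposite directions at the 2 times under both scalings, at -0.27 at 60h and 0.25 at 0h as deposited and at -0.40 and 0.12 after scaling. No member was flagged for a single library, since groups of 3 are too small for that check.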

How the results depend on the processing

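Across time the direction of the members held under each whole-library scaling: the median change was -0.5631, -0.5194 and -0.5672 in inhibitor-treated cells under median-of-ratios, TPM and quantile scaling, and -0.5255, -0.5121 and -0.5024 in control cells. Between inhibitor-treated and control cells median-of-ratios scaling moved the median to -0.0462 at 60h and -0.012 at 0h, with 6 higher and 13 lower at 60h (7 lower under quantile scaling) and 2 higher at 0h. Scaling to the family median sets the median near 0 by construction: it was 0.0078 and 0.0146 across time in inhibitor-treated and control cells, and -0.003 and 0.0015 for the inhibitor at 60h and 0h. Its counts above and below the family were 17 and 13, 10 and 8, 15 and 12, and 6 and 3 in that order, and 7 and 6 in the interaction. Those above the family numbered 11 across time in inhibitor-treated cells when only the groups compared were fitted. At 0h they numbered 3 in that fit, 3 without the trend and 2 at an adjusted p under 0.01, and those below numbered 1, 0 and 1. In the interaction those above numbered 4 with no filter, 3 without the trend and 3 at the stricter threshold, where 3 stood below, and 7 stood below at 60h. The interaction as deposited gave 1 higher under median-of-ratios or quantile scaling, no filter, no trend or the stricter threshold, and 15 lower under quantile scaling and 5 at that threshold. The large minus small subunit change was 0.0954 in inhibitor-treated and 0.0541 in control cells under quantile scaling, against 0.1038 and 0.0648 as deposited. These values include the paralogs, without which the control groups stood in the opposite order. The cause of these shifts was not tested.

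Leaving out 1 library at a time gave medians of -0.6658 to -0.5939 across time in inhibitor-treated and -0.618 to -0.5771 in control cells, 0.0548 to 0.1082 and 0.0945 to 0.163 for the inhibitor at 60h and 0h, and -0.0405 to -6e-04 in the interaction. Calls stayed at 1 higher and 46 lower in inhibitor-treated and 2 and 45 in control cells across time. They ran from 17 to 24 higher and 3 to 5 lower at 60h and from 23 to 39 higher and 0 lower at 0h (39 without CBP_0h replicate 3). In the interaction they ran from 1 to 4 higher and 6 to 12 lower. Shares of all genes called in these fits were not computed. Counts above the family ran from 14 to 18, 8 to 11, 13 to 16, 2 to 7 and 4 to 8, and below it from 10 to 14, 7 to 8, 8 to 14, 1 to 5 and 4 to 8, in the same order of comparisons. With the paralogs included, the large minus small change ran from 0.097 to 0.1118, 0.0618 to 0.0684, 0.0305 to 0.0372, -0.0129 to 0.002 and 0.0321 to 0.047.

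For single members, 1424 alternative values stayed on the same side of the threshold. Where these were called they kept direction, and changes of direction without a call before or after are counted among them. With direction kept, 77 lost and 6 gained the call. A further 19 changed direction with a call before or after. Under median-of-ratios scaling these were RPL26L1 (-0.0224 at 60h, -7e-04 at 0h), RPL5 (-0.1225, -0.015), RPL3 at 60h (-0.1095) and RPSA at 0h (-0.0161), and under quantile scaling RPL5 at 60h (-0.0921). Relative to the family they were RPL22 (0.1666 across time in inhibitor-treated and 0.1006 in control cells), RPSA (0.0447 and 0.2062), RPL7L1 (0.4021), RPLP0 (0.2623) and RPS15 (0.2874) in inhibitor-treated cells, RPS27L in control cells (0.1582), and for the inhibitor RPL5 (-0.0793 at 60h, -0.0015 at 0h), and RPLP2 (-0.1043) and RPSA (-0.0026) at 0h.

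Same-numbered libraries did not deviate together (18 pairs, correlations -0.094 to 0.082), so the numbers were not taken to pair them. With the replicate number as a block, 1 member in place of 3 stood below the family at 0h, RPS16 missed the interaction call (adjusted p = 0.0615), and no other named member lost or gained a call. No sequence was used, so the planned description of promoter tracts was not run.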

Other observations

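The order of the 47 tested members by level was nearly the same in every group. Spearman's rho between group means ran from 0.9875 (CBP_60h and WT_0h) to 0.9981 (CBP_0h and WT_0h), as a description over genes that share their libraries. In CBP_0h replicate 3 the 16 members with a gene model under 1000 bases lay at a median of -0.14 from their group mean on the log2 scale, and the 31 longer members at -0.07. The widest spread of a member within a group was also in CBP_0h, with a coefficient of variation of 22.3% for RPS29, at 201, 162 and 128 FPKM.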
